A study of Mus musculus with 6 samples.

Results

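Interleukins are secreted proteins through which leukocytes and stromal cells signal to each other, and this account covers their genes, those of their receptors and those of their soluble antagonists in atherosclerotic plaque. The members were all rows of the deposited count table whose symbol starts with Il and a digit, without Il1b, Il18 and Il34. This gave 80 of 24062 symbols: 34 ligands, 3 antagonists or binding proteins (Il1rn, Il1f5 and Il18bp), 41 receptor chains, decoy receptors included, and 2 symbols in neither class. These 2 were Il4i1, an amino acid oxidase, and Il1bos, an antisense RNA. RNA came from plaque of the aortic arch of C57BL/6 mice that lacked the low-density lipoprotein receptor, which makes them prone to atherosclerosis. All mice were fed TD88137, a high-fat diet, over 12 weeks, followed by 3 weeks on a low-fat diet. In week 1 of the low-fat diet, 3 samples' mice received ABT263 (navitoclax, an inhibitor of the survival proteins of the BCL-2 family that is used to kill senescent cells) at 100 mg/kg into the peritoneum, 1 dose per day, and the mice of the other 3 samples received vehicle. The labels give no age or sex and do not say that each sample was a separate mouse, so a p-value here reflects only how these 6 libraries scatter, part of which may be technical.

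Interleukins act in small modules. A ligand binds a private receptor chain that pairs with a chain shared by a family: the common gamma chain (Il2rg) for IL-2, IL-4, IL-7, IL-9, IL-15 and IL-21, gp130 (Il6st) for IL-6 and IL-11, Il1rap for IL-1, IL-33 and IL-36, Il10rb for IL-10 and IL-22, and Il17ra for most of the IL-17 family. Decoy chains (Il1r2, Il13ra2, Il22ra2) and soluble proteins (Il1rn, Il18bp) bind ligand or receptor without signalling. In plaque, IL-1 and IL-6 are known as drivers of inflammation, IL-10 as a restraint on macrophages, and IL-12 and IL-18 as inducers of interferon-gamma in T cells and natural killer cells.

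The DNA before the start sites of 3 members is shown because their vehicle and ABT263 libraries did not overlap: Il18rap and Il21r, lower with ABT263, and Il33, higher. Each line holds 250 bases upstream of a RefSeq start site (GRCm38.p6, the assembly of mm10), 5′ to 3′ on the coding strand, which is the plus strand for these 3 genes. The windows are chr1:40515112-40515361 for Il18rap, chr7:125603179-125603428 for Il21r, and chr19:29924863-29925112 and chr19:29945540-29945789 for the 2 start sites of Il33. None of them overlapped a GENCODE M21 exon. Capitals mark matches on either strand to 4 motifs: GGAAGT, a core of ETS factor sites, TATAAA of the TATA box, TTCNNNGAA, the GAS element of STAT factors, and a core of interferon response elements (GAAA, any 2 bases, GAAA).
Il18rap: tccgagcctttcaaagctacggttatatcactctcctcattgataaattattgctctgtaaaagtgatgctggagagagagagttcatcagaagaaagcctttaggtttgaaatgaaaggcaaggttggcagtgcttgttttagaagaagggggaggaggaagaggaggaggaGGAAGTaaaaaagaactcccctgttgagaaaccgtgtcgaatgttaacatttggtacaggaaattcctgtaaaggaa
Il21r: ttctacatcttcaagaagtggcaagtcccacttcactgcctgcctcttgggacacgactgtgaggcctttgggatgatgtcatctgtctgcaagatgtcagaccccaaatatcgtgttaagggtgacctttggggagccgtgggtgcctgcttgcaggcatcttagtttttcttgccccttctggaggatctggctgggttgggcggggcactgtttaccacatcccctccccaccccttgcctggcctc
Il33 (upstream start): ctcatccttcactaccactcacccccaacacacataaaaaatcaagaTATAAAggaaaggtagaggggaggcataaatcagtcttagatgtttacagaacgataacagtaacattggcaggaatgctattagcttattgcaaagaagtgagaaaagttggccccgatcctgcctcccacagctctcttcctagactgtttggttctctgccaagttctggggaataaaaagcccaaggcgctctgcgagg
Il33 (downstream start): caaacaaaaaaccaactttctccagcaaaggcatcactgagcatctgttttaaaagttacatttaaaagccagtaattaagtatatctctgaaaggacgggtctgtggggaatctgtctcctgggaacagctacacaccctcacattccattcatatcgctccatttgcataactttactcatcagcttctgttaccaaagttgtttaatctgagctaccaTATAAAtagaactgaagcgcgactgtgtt

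Il18rap had 1 ETS core 77 bases before its start, and the downstream start of Il33 had a TATA box 29 bases before it, where the upstream start had one at 203 bases. The window of Il21r held none of the 4 motifs. Over 32851 RefSeq windows of the same length, 19.7% held the ETS core, 12.4% TATAAA, 7.02% the GAS element and 2.98% the interferon element. Of the 64 members with a window in the RefSeq table, 19 held the ETS core, 10 TATAAA, 9 the GAS element and 2 the interferon element. A member was counted if any of its windows held the motif. Some members had several windows, so these counts cannot be set directly against the shares per window. These are matches of letters only.

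Library totals ran from 62930547 to 110452098 counts, and a count of 0 allowed up to 0.0278 to 0.0480 CPM (counts scaled to a common library size, here after TMM, a correction for RNA composition), which covers counting error only. Markers of smooth muscle, macrophages and endothelium were present in all 6 libraries. Before the members' values, some libraries need naming because they stand apart. In vehicle replicate 2 the endothelial markers (5 genes: Pecam1, Cdh5, Vwf, Kdr and Tek) summed to 323 CPM against 1508 to 4326 CPM in the other 5 libraries. In ABT263 replicate 2 the adipocyte markers summed to 2335 CPM against 62.0 to 285 CPM, and the mast cell markers to 156 CPM against 5.14 to 21.1 CPM. The 7 smooth muscle markers summed to 15420 CPM in that library and 9543 CPM in ABT263 replicate 3, against 2375 to 3546 CPM in the other 4. In ABT263 replicate 3 the skeletal muscle markers summed to 36.3 CPM, against 3.73 to 5.60 CPM elsewhere. Fibroblast markers summed to 5827 CPM in the same library, against 2128 to 3367 CPM elsewhere. Of these genes, Dcn and Lum were highest there. Pi16, Dpt and Pdgfra were highest in ABT263 replicate 2 instead, at 488, 537 and 88.9 CPM. The 8 macrophage markers summed to 7160 to 14290 CPM in vehicle plaque and 3395 to 6906 CPM in ABT263 plaque, and the 7 T cell markers to 95.5 to 142 CPM and 30.2 to 81.1 CPM. B cell markers (6 genes) summed to 20.8 to 77.2 CPM with vehicle and 4.57 to 13.6 CPM with ABT263, and neutrophil markers to 106 to 240.1 CPM and 45.2 to 105 CPM. The macrophage and neutrophil sums separated the groups narrowly, by 7160 against 6906 CPM and by 105.7 against 104.6 CPM. Single genes of these lists overlapped all the same, among them Cd68, Mrc1, Lgals3, S100a8, S100a9 and Pax5. None of these marker genes was at 0 in every library. In bulk tissue, fewer cells of a type and less RNA per cell cannot be told apart.

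Of the 80 members, 51 passed the filter on low counts: 15 ligands, 2 antagonists and 34 receptors. The edgeR quasi-likelihood test put 0 of 51 members past an adjusted p of 0.05, as it did for 0% of the 15222 genes tested, and the smallest adjusted p of a member was 0.592. At an unadjusted p under 0.05, edgeR listed 8 members lower with ABT263 (3.68% of all genes) and 1 higher (4.70% of all genes). These were 9 members in all, beside 8.38% of all genes in either direction. By limma-voom 0 genes were called, and 5 members were listed at its unadjusted p, beside 855 of the 15222 genes. DESeq2, which called 0.582% of the genes it adjusted as lower and 0.478% as higher, called 2 members, Il18bp (adjusted p = 0.0115) and Il18rap (adjusted p = 0.0199), both lower; it gave no adjusted p for Il33, Il27 and Il2ra.

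Libraries of the 2 groups did not overlap for 7 members on the lower side (Il18bp, Il18rap, Il10ra, Il21r, Il2rb, Il12rb1 and Il27; 6.31% of all genes) and for 2 on the higher side (Il33 and Il17d; 5.68% of all genes). Without vehicle replicate 2 and ABT263 replicate 2 together, 19 members were lower without overlap and 6 higher, where 19.8% and 19.1% of all genes were so, among 49 members. The median log2 fold change (ABT263 over vehicle) was -0.55 over the 15 tested ligands and -0.29 over the 34 tested receptors, beside 0.00080 over all genes. A negative fold change was found for 10 of the 15 ligands and 21 of the 34 receptors, beside 49.9% of all genes. Without vehicle replicate 2 the ligand median was 0.12, with 8 of 14 ligands positive, whereas the receptor median was -0.38.

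**Figure D1:**
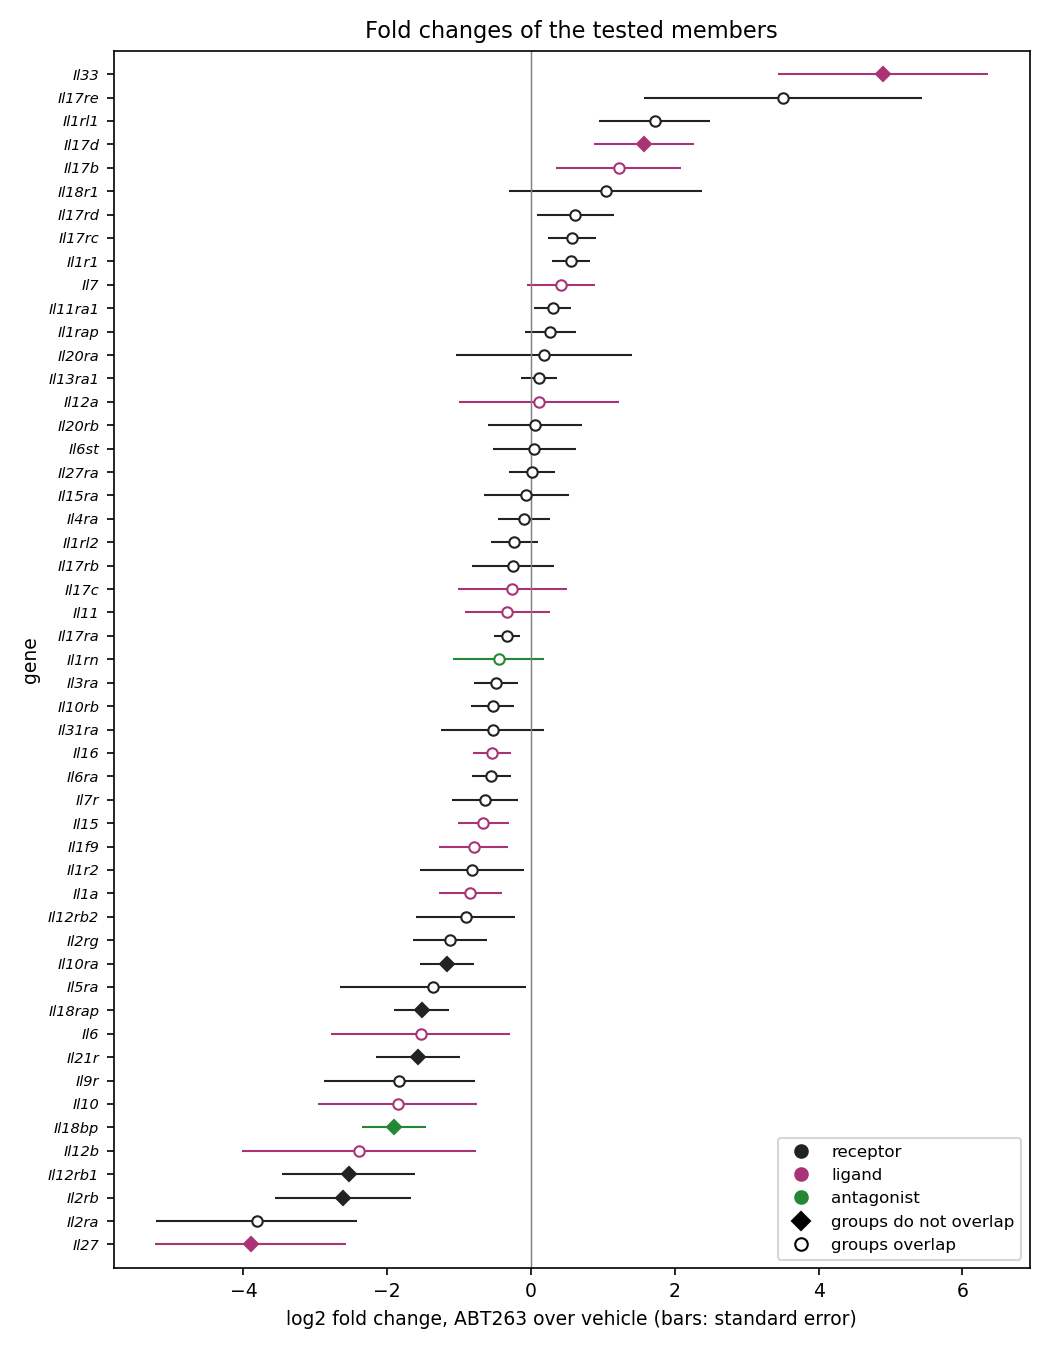
Log2 fold change of ABT263 over vehicle (horizontal axis) with its standard error for each of the 51 tested members, ordered by value and coloured by class; filled diamonds mark genes whose libraries did not overlap between the groups. The values run from -3.90 for Il27 to 4.90 for Il33, Il17re has the widest bar (SE 1.93), and 33 of the 51 genes lie left of 0.

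Receptors were the abundant part of the system. Levels between genes are compared here per exon length, as CPM per kilobase (RPKM, with GENCODE M21 exon lengths). Il10rb, the shared chain of the IL-10 family, led with a mean of 117 RPKM over the 6 libraries, followed by Il11ra1 (the IL-11 receptor) at 67.8, Il6st at 56.9, Il10ra (the private IL-10 chain) at 46.5, Il7r at 43.4 and Il4ra at 30.6 RPKM. These were close enough that their order changed between libraries: in vehicle replicate 2, Il6st was the lowest of the 6. Il2rg (30.2 RPKM) and Il13ra1, which pairs with Il4ra (22.7 RPKM), came next. The most abundant ligands were below all of these: Il16, a chemoattractant for CD4 cells, at 8.54 RPKM, Il1a at 7.999, Il15 at 4.79 and Il33 at 4.64, the last through 1 library. Exons overlap those of other genes over 569 bases in Il10rb, 571 in Il4ra, 728 in Il2rg and 1368 in Il16, so these levels are uncertain. Both detected antagonists had a higher mean than any ligand among the members, which leave out Il1b and Il18, with Il18bp at 50.6 and Il1rn at 41.8 RPKM.

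The members differed widely in how even they were between libraries. Il17ra ran from 26.2 to 43.2 CPM, a 1.65-fold range, and Il13ra1 and Il11ra1 spanned 1.69-fold and 1.86-fold. Il2ra, Il2rb and Il27 spanned 74.9-fold, 55.0-fold and 129-fold. The median SD within groups on the log2 CPM scale (prior count of 2) was 0.88 for ligands and 0.74 for receptors, beside 0.40 for all genes tested.

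**Figure D2:**
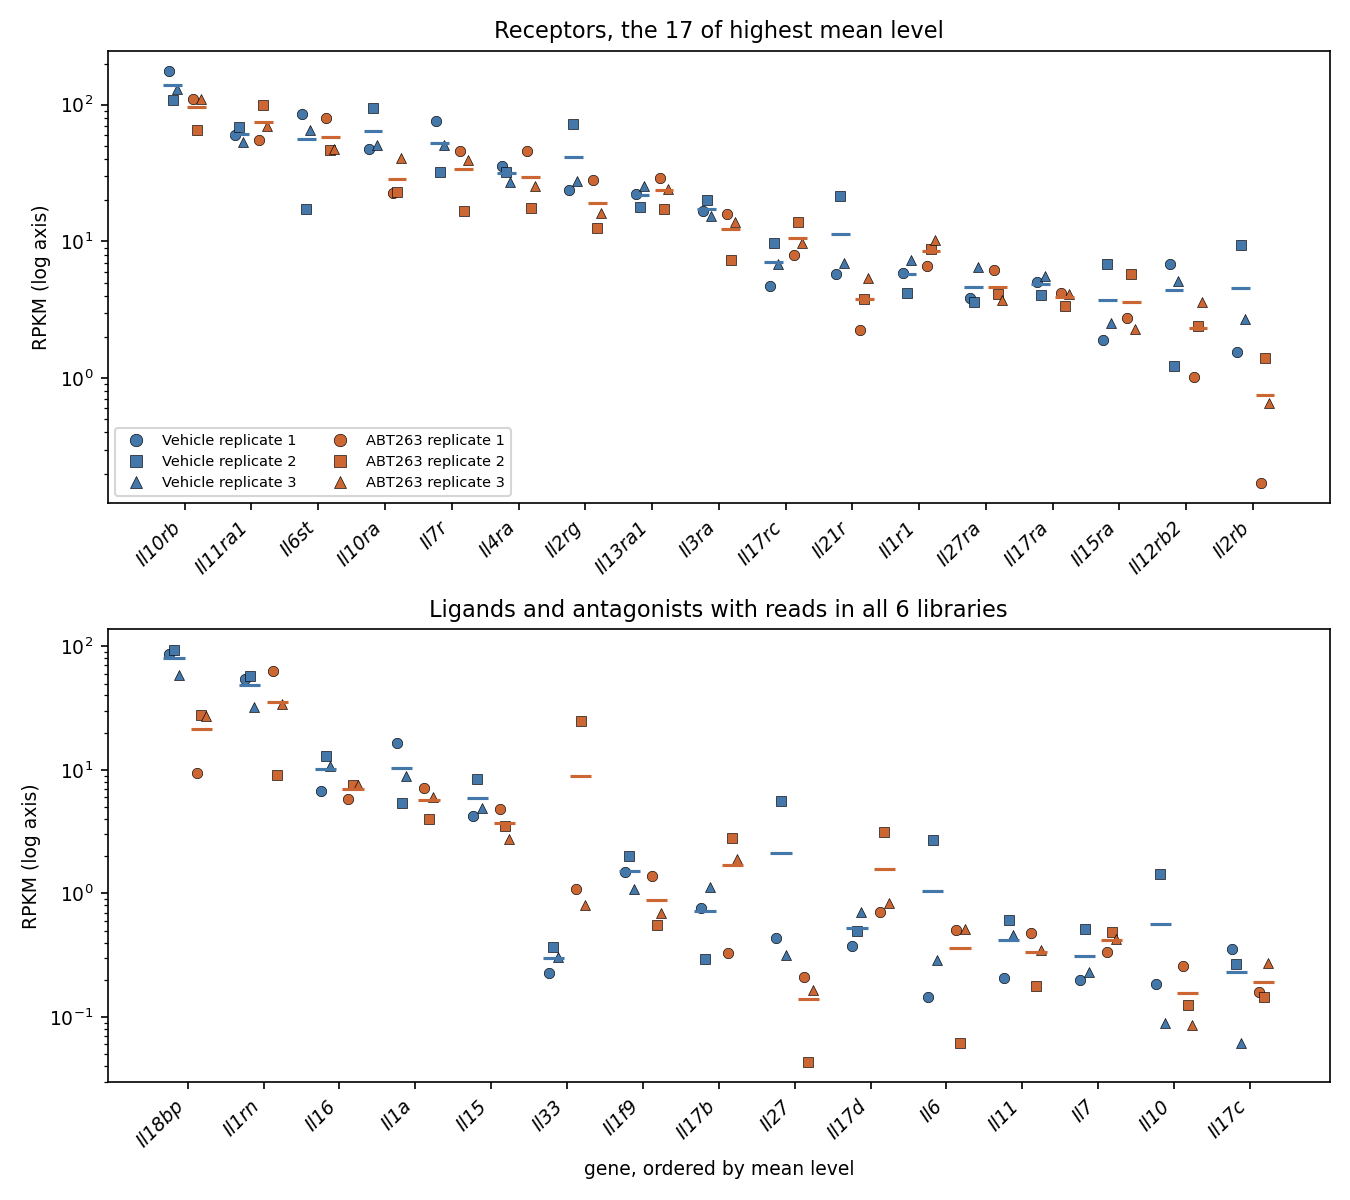
Level per exon length (RPKM, log axis) in each library for the 17 most abundant receptors and for the ligands and antagonists with reads in all 6 libraries, with vehicle in blue and ABT263 in orange; symbols mark replicates and bars the group means. Il10rb leads the receptors at a mean of 117 RPKM, the means of Il18bp and Il1rn over the 6 libraries lie above those of all ligands, and vehicle replicate 2 (blue squares) is the highest library for Il27, Il6 and Il10.

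Among ligands and antagonists of the IL-1 family, Il18bp had the smallest p of all members. Il18bp (chromosome 7, 102014885 to 102018690, mm10) encodes a secreted protein that binds IL-18 and keeps it from its receptor. Its level was 263, 282 and 179 CPM in vehicle replicates 1 to 3 and 28.4, 83.8 and 81.9 CPM in ABT263 replicates 1 to 3. Every ABT263 library was below every vehicle library, and ABT263 replicate 1 was the lowest. The group levels were 241 ± 54.9 and 64.7 ± 31.4 CPM (SD, n = 3 each), with a log2 fold change of -1.90 (SE 0.45, edgeR adjusted p = 0.592). Leaving out each library in turn gave -2.12 to -1.55. Summed macrophage, neutrophil, T cell and B cell markers were lower in the same libraries, though some single genes overlapped, as given above. Their part in this difference was not tested. An 80-base stretch of its exons overlaps Numa1 on the other strand, so a small share of its count is uncertain.

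Il1rn, the IL-1 receptor antagonist, overlapped between the groups. It stood at 147.5, 157 and 88.0 CPM in vehicle plaque and 169, 24.4 and 93.2 CPM in ABT263 plaque, so that only ABT263 replicate 2 was apart (log2 fold change -0.45, SE 0.64). Without that replicate the value was 0.010. Il1a, the alarmin form of IL-1, stood at 32.6, 10.7 and 17.6 CPM in vehicle plaque and 14.2, 7.85 and 11.8 CPM in ABT263 plaque (log2 fold change -0.85, SE 0.44), with vehicle replicate 1 the highest. Il1f9, the IL-36 gamma gene, had a log2 fold change of -0.80 (SE 0.48).

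Il33, an alarmin stored in nuclei of stromal and endothelial cells, had the largest positive fold change of the members. It stood at 0.592, 0.965 and 0.790 CPM in vehicle plaque and at 2.83, 65.3 and 2.12 CPM in ABT263 plaque. All 3 ABT263 libraries were above all vehicle libraries, and replicate 2 was far above the other two. The log2 fold change was 4.90 (SE 1.46, edgeR adjusted p = 0.592) and 1.66 without ABT263 replicate 2. Il33 lies on chromosome 19 (29925114 to 29960718). Its receptor Il1rl1 (ST2), which mast cells carry, was also highest in that library, at 6.62 CPM against 0.800 to 1.58 CPM elsewhere, and its log2 fold change of 1.72 (SE 0.78) became 0.41 without it. Summed smooth muscle, adipocyte and mast cell markers were highest in the same library. So were the fibroblast genes Pi16, Dpt and Pdgfra, but not Dcn and Lum. The part of these cells in the values was not tested.

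Of the 9 receptor genes of the IL-1 family, 6 lie side by side on chromosome 1, from Il1r2 (start 40074079) through Il1r1, Il1rl2, Il1rl1 and Il18r1 to Il18rap (end 40551705), and their fold changes differed in sign. Il18rap, the signalling chain of the IL-18 receptor, stood at 3.10, 5.94 and 5.10 CPM in vehicle plaque and 2.08, 1.60 and 1.25 CPM in ABT263 plaque, with no overlap. Its log2 fold change was -1.52 (SE 0.38, edgeR adjusted p = 0.592) and stayed between -1.75 and -1.32 when each library was left out. Il18r1, the ligand-binding chain next to it, stood at 1.28, 3.01 and 3.33 CPM in vehicle plaque and 0.196, 14.4 and 1.05 CPM in ABT263 plaque. Its log2 fold change of 1.04 (SE 1.34) turned to -2.03 without ABT263 replicate 2, the library with the high Il33, and limma-voom gave -0.92 with all 6. Summed T cell, B cell and neutrophil markers were lower in all 3 ABT263 libraries, the last narrowly. Their part in Il18rap was not tested.

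Il1r1, the signalling IL-1 receptor, stood at 35.8, 25.8 and 45.1 CPM in vehicle plaque and 40.5, 53.7 and 62.1 CPM in ABT263 plaque (log2 fold change 0.55, SE 0.27). Its groups overlapped through ABT263 replicate 1 and vehicle replicate 3. Il1r2, the decoy, stood at 0.896, 3.19 and 0.746 CPM in vehicle plaque and 1.53, 0.593 and 0.617 CPM in ABT263 plaque (log2 fold change -0.82, SE 0.73). Its sign turned without vehicle replicate 2, to 0.16. Il1rap and the IL-36 receptor Il1rl2 had log2 fold changes of 0.27 and -0.23.

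**Figure D3:**
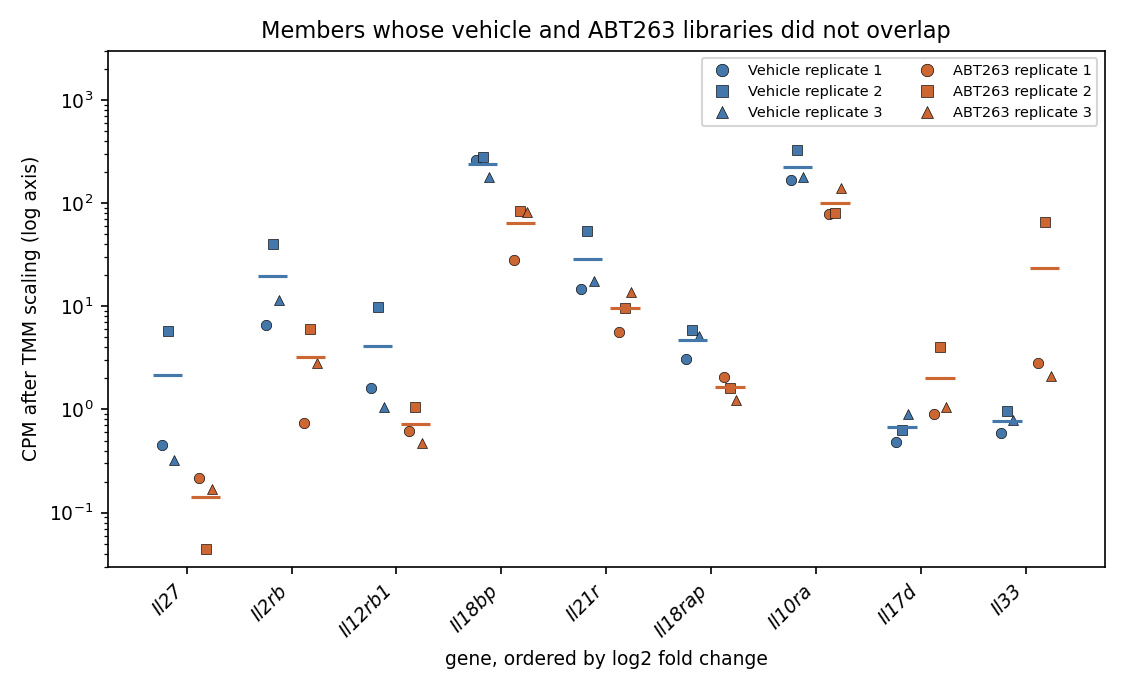
Level (CPM after TMM scaling, log axis) in each library of the 9 members whose vehicle (blue) and ABT263 (orange) libraries did not overlap, ordered by log2 fold change; symbols mark replicates and bars the group means. The 7 genes on the left are lower in all ABT263 libraries, Il18bp and Il10ra are the abundant ones, and the mean of Il33 with ABT263 is set by replicate 2 at 65.3 CPM.

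Of the 9 tested receptors grouped as the common gamma chain family, 8 had a negative fold change, beside 49.9% of all genes, with a median of -1.13. The group included Il13ra1, which pairs with Il4ra rather than Il2rg and alone had a positive log2 fold change (0.11). Il2rb, Il2ra and Il21r, 3 of the 9, were lower at an edgeR unadjusted p under 0.05, beside 3.68% of all genes. Without vehicle replicate 2 the count was 0 of 9, beside 1115 of 15495 genes in either direction. The median was then -0.73, with 8 of 9 negative, all but Il15ra. Il2rb, the signalling chain of the IL-2 and IL-15 receptors on T cells and natural killer cells, stood at 6.61, 40.3 and 11.6 CPM in vehicle plaque and 0.733, 6.05 and 2.82 CPM in ABT263 plaque. The groups did not overlap, by a margin of 6.61 against 6.05 CPM, and vehicle replicate 2 was the highest library. With library totals as the only scaling they overlapped. The log2 fold change of Il2rb was -2.61 (SE 0.95), and -1.52 without that library. Summed T cell, B cell and neutrophil markers were lower in the same libraries, the last narrowly. Their part in these receptors was not tested.

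Il2ra (CD25), the chain that regulatory and activated T cells add for high affinity, stood at 1.52, 27.8 and 0.980 CPM in vehicle plaque and 0.372, 1.20 and 0.589 CPM in ABT263 plaque. Vehicle replicate 2 alone set its log2 fold change of -3.82 (SE 1.395), which was -0.80 without it, and the groups overlapped. Il21r stood at 14.6, 54.2 and 17.6 CPM in vehicle plaque and 5.69, 9.65 and 13.8 CPM in ABT263 plaque, without overlap (log2 fold change -1.57, SE 0.59, and -0.73 when vehicle replicate 2 was left out). Il2rg, the shared chain itself, stood at 39.8, 121 and 46.3 CPM in vehicle plaque and 47.0, 21.1 and 26.9 CPM in ABT263 plaque, with ABT263 replicate 1 above 2 of the vehicle libraries (log2 fold change -1.13, SE 0.51). Without vehicle replicate 2 it was -0.45.

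Il4ra, the receptor of IL-4 and IL-13, stood at 188, 169 and 142 CPM in vehicle plaque and 240, 92.6 and 134 CPM in ABT263 plaque, so the ABT263 group held both the highest and the lowest library (log2 fold change -0.098, SE 0.36). Il7r stood at 269, 114 and 178 CPM in vehicle plaque and 162, 59.2 and 139 CPM in ABT263 plaque (log2 fold change -0.64, SE 0.46). Il9r, the IL-9 receptor, was scarce, at 0.400, 0.390 and 1.74 CPM in vehicle plaque and 0.0310, 0.459 and 0.224 CPM in ABT263 plaque (log2 fold change -1.83, SE 1.05). Il13ra1 had a log2 fold change of 0.11 and Il15ra, which presents IL-15, one of -0.069. Of the ligands, Il15 stood at 8.86, 17.8 and 10.4 CPM in vehicle plaque and 10.2, 7.38 and 5.85 CPM in ABT263 plaque (log2 fold change -0.66, SE 0.36), and Il7 had a log2 fold change of 0.41 (SE 0.47). In the beta chain family, Il3ra and Il5ra had log2 fold changes of -0.49 and -1.37.

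Among ligands of the gp130 and IL-12 family, vehicle replicate 2 was the highest library for each of the 5 tested, beside 30.0% of all genes. For Il11 it stood at 1.26 CPM against 1.00 CPM in ABT263 replicate 1, and for Il12a at 0.334 against 0.237 CPM in ABT263 replicate 2. Il27, the p28 subunit of IL-27, stood at 0.448, 5.75 and 0.322 CPM in vehicle plaque and 0.217, 0.0445 and 0.168 CPM in ABT263 plaque. The groups did not overlap, although its ABT263 libraries held only 21, 3 and 12 reads. The log2 fold change of Il27 was -3.90 (SE 1.33), and -1.402 without vehicle replicate 2. Il6 stood at 0.352, 6.56 and 0.702 CPM in vehicle plaque and 1.22, 0.148 and 1.26 CPM in ABT263 plaque. The fold change of Il6 on the log2 scale, -1.53 (SE 1.25), turned to 0.73 without vehicle replicate 2. Il11 ran from 0.370 to 1.26 CPM over all libraries (log2 fold change -0.33, SE 0.59), and Il12a and Il12b, the subunits of IL-12, stayed under 0.8 CPM.

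On the receptor side, Il12rb1, the chain shared by IL-12 and IL-23, stood at 1.60, 9.81 and 1.05 CPM in vehicle plaque and 0.620, 1.05 and 0.477 CPM in ABT263 plaque. The groups were separated only in the fourth digit, by 1.0528 against 1.0521 CPM, and with library totals as the only scaling they overlapped. For Il12rb1 the log2 fold change was -2.54 (SE 0.93), and -0.89 when vehicle replicate 2 was left out. Il12rb2, its partner for IL-12, stood at 25.8, 4.68 and 19.6 CPM in vehicle plaque and 3.88, 9.14 and 13.7 CPM in ABT263 plaque (log2 fold change -0.91, SE 0.69), and 1519 bases of its exons overlap Serbp1, so its count is uncertain.

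Il6st (gp130) stood at 938, 190 and 716 CPM in vehicle plaque and 872, 511 and 518 CPM in ABT263 plaque, with vehicle replicate 2 far below the rest (log2 fold change 0.044, SE 0.58, and -0.39 without it). That library also had the lowest endothelial marker sum, and the part of those cells in the value was not tested. Il6ra, the private chain of IL-6, stood at 27.2, 18.4 and 36.0 CPM in vehicle plaque and 17.1, 17.1 and 21.5 CPM in ABT263 plaque, with all ABT263 libraries below vehicle replicates 1 and 3 (log2 fold change -0.55, SE 0.27). Il11ra1 stood at 134 to 173 CPM in vehicle plaque and 140, 249 and 175 CPM in ABT263 plaque (log2 fold change 0.30, SE 0.26), and its near copy Il11ra2 had 0 reads in all libraries, so reads of the pair may be divided wrongly. Il27ra had a log2 fold change of 0.012 (SE 0.33).

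In the IL-10 family, the private receptor Il10ra (chromosome 9, 45253837 to 45269149) separated the groups and the ligand did not. Il10ra, found on leukocytes, stood at 167, 331 and 178 CPM in vehicle plaque and 78.9, 80.1 and 142 CPM in ABT263 plaque. All ABT263 libraries were lower, with replicate 3 nearest to vehicle (log2 fold change -1.17, SE 0.37, edgeR adjusted p = 0.592). Left-out libraries gave -1.50 to -0.78. Its partner Il10rb, found on most cells, stood at 325, 202 and 241 CPM in vehicle plaque and 205, 120 and 205 CPM in ABT263 plaque, where vehicle replicate 2 fell inside the ABT263 range (log2 fold change -0.53, SE 0.30). Il10 itself was scarce, at 0.240, 1.88 and 0.117 CPM in vehicle plaque and 0.341, 0.163 and 0.112 CPM in ABT263 plaque, and its log2 fold change of -1.85 (SE 1.11) turned to 0.21 without vehicle replicate 2. Summed macrophage, neutrophil, T cell and B cell markers were lower in the same libraries as Il10ra, the first 2 narrowly. Their part was not tested.

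In the IL-17 family, 2 of 3 tested ligands and 3 of 5 receptors had a positive fold change. ABT263 replicate 2 was the highest library for 2 of the ligands and 4 of the receptors, beside 24.9% of all genes. Il17d, a ligand of the family, stood at 0.480, 0.631 and 0.907 CPM in vehicle plaque and 0.909, 4.03 and 1.07 CPM in ABT263 plaque. The groups were separated by 0.907 against 0.909 CPM, and overlapped with RLE size factors. For Il17d the log2 fold change was 1.57 (SE 0.69), and 0.55 with ABT263 replicate 2 left out. Il17re, the IL-17C receptor of epithelia, stood at 10.7 CPM in ABT263 replicate 2 and at 0.0280 to 0.368 CPM in the other 5 libraries, so its log2 fold change of 3.51 (SE 1.93) turned to -2.32 without that library, and limma-voom gave -0.028 with all 6. Summed smooth muscle, adipocyte and mast cell markers were highest in the same library, as were the fibroblast genes Pi16, Dpt and Pdgfra. Dcn and Lum were not. The part of these cells was not tested. Il17ra, the shared chain, stood at 39.3, 31.7 and 43.2 CPM in vehicle plaque and 32.4, 26.2 and 31.7 CPM in ABT263 plaque (log2 fold change -0.34, SE 0.19). Il17rc and Il17rd had 0.56 and 0.62. Il17a had 4 reads in 1 vehicle library and none elsewhere, and Il17f none at all. Il16 stood at 36.0, 68.8 and 57.4 CPM in vehicle plaque and 31.1, 40.1 and 39.9 CPM in ABT263 plaque, with vehicle replicate 1 inside the ABT263 range (log2 fold change -0.55, SE 0.27).

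The members that did not pass the filter had few or no reads. No read was counted for 12 of them, 9 ligands (Il1f6, Il1f8, Il1f10, Il9, Il31, Il20, Il22, Il24 and Il17f), the antagonist Il1f5, and the receptors Il1rapl2 and Il11ra2. By counting error alone, this allows at most 0.0480 CPM in any library. No such limit holds for Il11ra2, since its reads and those of Il11ra1 may be divided wrongly. Il4, Il5 and Il13, the type 2 cytokines, had at most 14, 7 and 1 reads in a library. Il2 had 2, 6 and 10 reads with vehicle and none with ABT263. Of the decoys, Il13ra2 had 0, 1 and 6 reads with vehicle and 8, 55 and 12 with ABT263, and Il22ra2 had 41 reads in vehicle replicate 3 and at most 6 elsewhere.

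The signalling partners outside the symbol rule were a list of 44 genes (kinases, STAT factors, SOCS inhibitors, adaptors, and receptor chains and ligands with other names), all of them tested. By edgeR 0 of 44 passed the adjusted threshold, and 34 had a negative fold change, beside 49.9% of all genes, with a median of -0.19. At an unadjusted p under 0.05, 4 were lower and 1 higher, beside 3.68% and 4.70% of all genes. Groups did not overlap for 8 on the lower side and 1 on the higher, beside 6.31% and 5.68%. Tbx21, the transcription factor of type 1 T cells and natural killer cells, stood at 1.30, 2.75 and 2.97 CPM in vehicle plaque and 0.124, 0.785 and 0.336 CPM in ABT263 plaque (log2 fold change -2.50, SE 0.75). Stat4, which relays IL-12, stood at 4.05, 6.07 and 5.80 CPM in vehicle plaque and 3.21, 2.24 and 1.79 CPM in ABT263 plaque (log2 fold change -1.13, SE 0.35). Ebi3, which pairs with the Il27 product, had a log2 fold change of -1.77 (SE 0.70), and the phosphatase gene Ptpn6 had -1.21 (SE 0.49). Vehicle replicate 2 stood far above the rest for both. Ebi3 was at 2.64, 15.3 and 3.51 CPM in vehicle plaque and 2.36, 2.03 and 1.89 CPM in ABT263 plaque. Ptpn6 was at 177, 431 and 145 CPM in vehicle plaque and 138, 66.5 and 121 CPM in ABT263 plaque. Socs2, of the SOCS inhibitors, was the 1 on the higher side (0.43, SE 0.17). Kinases and STAT factors used by many receptors lay near 0, with Jak1 at -0.10, Jak2 at 0.0066, Stat3 at -0.0044 and Stat5b at -0.072.

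Single libraries set much of the fold change of some members. Vehicle replicate 2 was the highest library for 10 of 15 tested ligands (66.7%) and 11 of 34 receptors (32.4%), beside 30.0% of all genes. ABT263 replicate 2 was the highest for 3 ligands (20%) and 7 receptors (20.6%), beside 24.9%. Apart from the ligands in vehicle replicate 2, these shares were near or below those of all genes. Socs1, an inhibitor of cytokine signalling, stood at 24.4 CPM in vehicle replicate 2 and at 1.32 to 4.46 CPM elsewhere, so it was high in the library where Il27, Il2ra, Il6 and Il10 were high. Its part in those values was not tested.

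**Figure D4:**
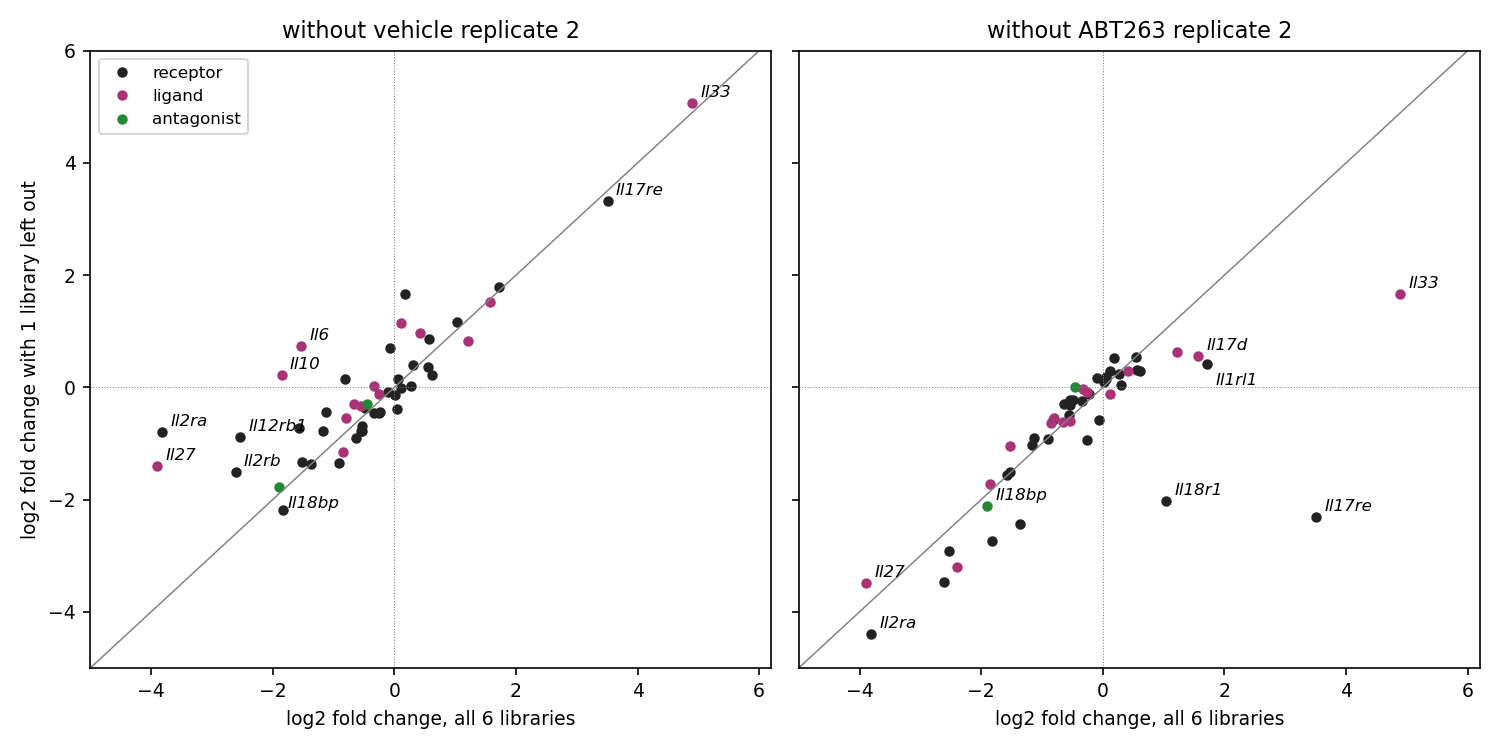
Log2 fold change of each member tested in both fits with 1 library left out (vertical axis) against that with all 6 libraries (horizontal axis), for vehicle replicate 2 on the left and ABT263 replicate 2 on the right; the line marks equal values. Il27, Il2ra, Il6 and Il10 move towards or past 0 without vehicle replicate 2, Il33, Il17re and Il18r1 drop without ABT263 replicate 2, and Il18bp stays near the line in both.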

How the data were processed

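For 6 bulk RNA samples, a single table of unnormalized counts (reads assigned to each gene symbol) was deposited by the authors. RNA was column-purified and libraries were made with the TruSeq RNA kit v2, per the labels' protocols. That kit does not mark the strand, so reads of overlapping genes cannot be told apart; exons of 22 members (17 of those tested) overlap another gene. Per the submitters' processing notes, which give no role or order, the tools were featureCounts 1.4.6, Subread, Bowtie2 2.2.6 and TopHat2 2.0.14, and the build was mm10. For strand and multi-mapping, the settings used were not given in the sources used here. Groups came from sample titles, and replicate numbers (accession order) pair nothing.

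Counts were filtered with filterByExpr (minimum count 10, minimum total 15), scaled by TMM and tested in edgeR 4.0.16 (R 4.3.3) by its quasi-likelihood test, with the group alone in the model. Benjamini-Hochberg adjustment ran over all 15222 genes, with a threshold of 0.05. The SE is the absolute log2 fold change over the square root of F. With 3 against 3, an exact permutation test cannot go below 0.1, so none is given. Alternatives were limma-voom (limma 3.58.1), DESeq2 1.42.0, other scalings, filters and fits without single libraries. The procedure was tested on 5 sets of simulated counts for the same 15222 genes. There edgeR called 0.6% of the genes changed 2-fold and 28% of those changed 4-fold, with 2.8 false calls per set. DESeq2 called 11.4% and 73.2% of them, with 57.8 false calls per set. The changed genes, 500 at each fold over the 5 sets, were drawn from all genes. Members scattered more within groups than all genes did, so these are not rates for members. A count of 0 by edgeR thus leaves room for real changes, and DESeq2 calls may include many false ones.

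Members, roles and lists were chosen with earlier results of these data known. Named members were the 6 receptors and 4 ligands of highest level per exon length, those whose groups did not overlap, and 20 listed outright; the others named were picked after their values were seen. Lengths and positions came from GENCODE M21 and promoters from RefSeq.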

Additional observations from a re-analysis of the deposited data

How the results depend on the processing

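No paired analysis was possible because the labels give the groups no shared replicate numbers. The counts of 0 called genes and 0 called members held under RLE, upper-quartile and no further scaling, limma-voom, no filter, a stricter filter (CPM of at least 1 in 3 libraries) and each left-out library and the pair of second replicates. DESeq2 called 153 genes (69 higher, 84 lower) and 2 members, Il18bp (log2 fold change -1.92) and Il18rap (-1.54). At an unadjusted p under 0.05 the count of members ran from 5 (limma-voom) to 11. Over all genes that count ran from 653 of 15433, without ABT263 replicate 2, to 1867 of 15556, without ABT263 replicate 1. Of 372 values of the 27 named members under alternatives, 355 kept their sign and side of the threshold and 15 changed sign.

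The 15 sign changes came without vehicle replicate 2 (Il10, Il11, Il1r2, Il6, Il6st), without ABT263 replicate 1 (Il6st) or 2 (Il1rn, Il4ra), or without the pair. Over fits leaving out 1 library, Il10 ran from -2.44 to 0.21, Il11 from -0.68 to 0.020, Il1r2 from -1.42 to 0.16, Il1rn from -1.16 to 0.010, Il4ra from -0.56 to 0.17, Il6 from -2.05 to 0.73 and Il6st from -0.39 to 0.48, with -0.26 without ABT263 replicate 1. With vehicle replicate 2 and ABT263 replicate 2 both left out, Il10 was 0.36, Il11 0.32, Il1r2 0.39, Il1rn 0.16, Il4ra 0.18, Il6 1.23 and Il6st -0.25, and the ligand median was 0.28. The ligand median ran from -0.70 to 0.12 and the receptor median from -0.40 to -0.20 over fits leaving out 1 library, and that of the common gamma chain receptors, an alternative added after seeing the data, from -1.41 to -0.73. Members without overlap, a count whose alternatives were added after seeing the data, numbered 12 to 21 when 1 library was left out. Of all genes, 8.89% to 14.3% were then lower without overlap and 8.26% to 17% higher. Without the pair the count was 25, beside 19.8% of all genes lower and 19.1% higher, since fewer libraries overlap less. Under the other scalings it was 7 to 11, beside 4.03% to 6.7% lower and 5.18% to 8.56% higher. The cause of the other changes was not tested. No scaling moved the median of all genes past 0.0913. With no filter beyond 1 count, 68 members were tested. Ligands under 1 CPM rest on few reads.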

Other observations

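Ratios of levels per exon length within a library, chosen after the values were seen and given without a test, set antagonist against ligand and chain against chain. Il1rn over Il1a was 3.30, 10.7 and 3.65 in vehicle plaque and 8.72, 2.27 and 5.74 in ABT263 plaque, so antagonist RNA exceeded that of Il1a in all 6. Il1b was outside the symbol rule, so the ratio does not cover all IL-1 ligand RNA. Il10ra over Il10rb was 0.272, 0.867 and 0.389 with vehicle and 0.204, 0.353 and 0.365 with ABT263, with the private chain below the shared chain throughout. Il2rb over Il2rg was 0.0646, 0.129 and 0.0978 with vehicle and 0.00608, 0.112 and 0.0409 with ABT263. Il18rap over Il18r1 ran from 1.51 to 2.39 with vehicle and was 10.4, 0.109 and 1.17 with ABT263, the widest spread of the 7 ratios computed. None of the 7 ratios separated the groups.

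Il1bos, the antisense RNA at the Il1b locus, had 74 reads in vehicle replicate 2 and at most 7 in any other library, and it did not pass the filter. Il4i1 shares exon bases with Nup62, Atf5 and Tbc1d17 and had 2 to 12 reads per library.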
